A study of Rattus norvegicus with 6 samples.

Results

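The miRNAs miR-199a and miR-214 were followed in rat kidney after aristolochic acid (AA), a plant nephrotoxin that forms DNA adducts in the renal tubule. Members were chosen by probe name alone: every probe named miR-199a, miR-199b or miR-214 on the array, in rat or another species, with passenger-strand names ending in an asterisk left out. This gave 13 probes of the 5560 miRNA probes on the array. Of the 13, 3 carried a rat name (rno-miR-199a-5p, rno-miR-199a-3p and rno-miR-214) and 10 carried the name of another species.

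Kidney RNA was hybridised from 6 male rats of the Big Blue transgenic line on the Fisher 344 background, which carries a bacteriophage mutation reporter, with 1 array per animal. Animals were 6 weeks old when treatment began. The 3 AA rats (replicates 19, 20 and 21) were gavaged with 10.0 mg/kg AA, as its sodium salt, 5 times per week for 12 weeks, and were killed 1 day after the final dose. The 3 control rats (replicates 13, 14 and 15) were untreated. All groups carried the reporter transgene.

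Mature miRNAs pair through their seed, bases 2 to 8 from the 5′ end, with sites in messenger RNAs and lower the output of those messages. miR-199a, from its Mir199a2 hairpin, and miR-214 are made from one long non-coding transcript, Dnm3os. This transcript runs antisense through an intron of the dynamin 3 gene and is induced by the mesenchymal factor Twist1. Both miRNAs are known as miRNAs of fibroblasts, pericytes and activated myofibroblasts, the cells that lay down collagen in a scarring kidney. Among their reported targets are caveolin 1 for miR-199a-5p and mTOR for miR-199a-3p. Both arms of miR-199a are used, whereas miR-214 acts mainly through its 3′ arm.

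The mature sequences of the rat members are shown because the probe names differ between species while the captured RNA may not. They come from RefSeq on assembly GRCr8 and are written 5′ to 3′ with the seed in capitals. All 3 rat probe targets were identical to these sequences.
rno-miR-199a-5p: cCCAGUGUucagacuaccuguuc
rno-miR-199a-3p: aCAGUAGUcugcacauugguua
rno-miR-214: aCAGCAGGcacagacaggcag
miR-199a-5p lies at chr13:77116255-77116277 and miR-199a-3p at chr13:77116294-77116315, both from the Mir199a2 hairpin on the plus strand. miR-214 lies at chr13:77121713-77121733 on the plus strand, in Mir214. Between the end of miR-199a-3p and the start of miR-214 there are 5397 bases. Dnm3 is annotated on the minus strand around both hairpins. The 3 seeds differ from each other, so the members share this locus but not a seed. The probes read mature RNA and do not show which hairpin made it.

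The arrays were unequal in quality. The mean miRNA probe signal above the empty spots was 484, 300.1 and 263 on control 13, 14 and 15, and 483, 149 and 270.0 on AA 19, 20 and 21. A probe counted as well above background where it passed the empty-spot median by 3 robust SDs. On AA 20 this held for 66.8% of the 1132 probes that were tested, against 84.9% to 97.9% on the other 5 arrays. Member differences are given with and without AA 20. The tubule miRNAs miR-192, miR-194, miR-30a, miR-200a, miR-200b and miR-200c were present on every array. Together with miR-204, their summed normalized intensities were 6258 to 6912 in controls and 6750 to 7444 in AA. The sum held members with differences of opposite sign. miR-194 read 770, 608 and 802 in control 13, 14 and 15 and 453, 264 and 432 in AA 19, 20 and 21, with all AA arrays below all controls (log2 difference -0.82, limma adjusted p = 0.885). On the normalized log2 scale miR-200a and miR-200c were above all controls in AA. In deposited intensity this held for miR-200a and for miR-200b, which read 1877 to 2071 in controls and 2412 to 3041 in AA. It did not hold for miR-200c, which read 431 on AA 19 and 472 on control 14. miR-204 stayed below 32 on every array.

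After normalization, the rat-named probe of miR-199a-3p read higher on every AA array than on any control. Several related probes of this arm, given below, placed AA 20 below the controls instead. The normalized intensity of the rat-named probe, as the authors deposited it, was 395, 477 and 405 in control 13, 14 and 15. It was 667, 1047 and 806 in AA 19, 20 and 21. On the log2 scale after normalization in this work, the arrays read 8.90, 9.11 and 9.10 in controls and 9.74, 9.63 and 9.96 in AA in the same order. Means were 9.04 ± 0.11 (SD, n = 3) in controls and 9.78 ± 0.17 (SD, n = 3) in AA. The difference was 0.74 (SE 0.24, 95% confidence interval 0.17 to 1.32), a 1.67-fold higher signal. The test over all probes was not passed (limma, adjusted p = 0.871).

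miR-214 gave a difference of similar size. Its deposited intensity was 835, 823 and 1118 in control 13, 14 and 15 and 1165, 2264 and 1791 in AA 19, 20 and 21. The lowest AA array was therefore only slightly above the highest control. On the normalized log2 scale the arrays read 9.82, 9.88 and 10.33 in controls and 10.39, 10.72 and 11.08 in AA. Means were 10.01 ± 0.28 (SD, n = 3) in controls and 10.73 ± 0.34 (SD, n = 3) in AA, a difference of 0.72 (SE 0.30, 95% confidence interval 0.02 to 1.42) or 1.64-fold. It did not pass either (limma, adjusted p = 0.885).

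miR-199a-5p, the other arm of the same hairpin, was split within the AA group. Its deposited intensity was 38.6, 38.4 and 42.5 in control 13, 14 and 15 and 98.4, 20.5 and 111 in AA 19, 20 and 21. AA 19 and AA 21 lay above all controls and AA 20 lay below them all, and on AA 20 the probe was not well above background. The normalized log2 signal was 6.75, 6.75 and 6.71 in controls and 7.42, 6.51 and 7.57 in AA, with means of 6.74 ± 0.03 (SD, n = 3) in controls and 7.17 ± 0.58 (SD, n = 3) in AA. The difference of 0.43 (SE 0.34, 95% confidence interval -0.36 to 1.22) did not pass (limma, adjusted p = 0.885). In whole-kidney RNA, more cells that make a miRNA and more of it per cell cannot be told apart, and this holds for every value here.

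The place of AA 20 depended on normalization. Before it, the scanner signal of miR-214 above the empty spots was 2042, 995 and 968 in control 13, 14 and 15 and 3264, 322 and 1855 in AA 19, 20 and 21. miR-199a-5p had 103, 41.0 and 34.5 in controls and 226, 15.4 and 83.1 in AA. For miR-199a-3p the same quantity was 1008, 563 and 330.1 in controls and 2207, 140 and 789 in AA. AA 20 was thus the lowest of the 6 arrays for all 3 miRNAs before normalization, and the highest of the 6 for miR-199a-3p and miR-214 in the deposited intensities. The part of array brightness in these differences was not tested.

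Of the 13 members, 8 reached an intensity of 32 on at least 1 array and were tested. None was called at an adjusted p of 0.05, where 0.177% of the 1132 tested probes were called (limma). All 8 tested members had a higher mean in AA, against 45.8% of all tested probes, with a median log2 difference of 0.43 against -0.05 over all tested probes. At an unadjusted p of 0.05, 3 of the 8 were higher and 0 lower in the same limma fit, against 1.15% and 3.8% of all tested probes. In 3 of the 8 every AA array was above every control array, against 4.42% of all tested probes. The members overlap in sequence and are not independent of each other, and pma-miR-199b passed the intensity filter only through AA 19 and AA 21. When related names outside the rule were included, 12 of 13 tested probes had a higher mean in AA. The exception was cfa-miR-199, whose target is the rat miR-199a-3p sequence without its last base. Its log2 difference was -0.16 (SE 0.78, limma adjusted p = 0.945).

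Of the 10 probes of other species, those aimed at the 3′ arm of miR-199a are written here with the bases that differ from the rat sequence or extend it in capitals, beside related names outside the rule that carry the same arm. Positions are counted from 1 at the 5′ end of the rat mature sequence, with the rat base first.
eca-miR-199a-3p: acaguagucugcacauugguAG
gga-miR-199b: caguagucugcacauuUgGu
ppy-miR-199b-3p: acaguaUucugcacauugguua
ssc-miR-199a*: caguagucugcacauugguua
ssc-miR-199b*: Uacaguagucugcacauugguu
bta-miR-199c: Uacaguagucugcacauugg
cfa-miR-199: acaguagucugcacauugguu
The horse probe (eca, U21A and A22G) followed the rat probe. Its deposited intensity was 512, 544 and 553 in control 13, 14 and 15 and 790, 1260 and 962 in AA 19, 20 and 21, with a log2 difference of 0.64 (SE 0.25, limma adjusted p = 0.885) and no overlap between groups. The orangutan probe (ppy), with G7U inside the seed, gave 73.5, 93.6 and 67.8 in controls and 272, 29.3 and 117 in AA. AA 20 was below all controls there, and the log2 difference was 0.24 (SE 0.52, limma adjusted p = 0.921). The chicken probe (gga, G18U and U20G, without the first base and the last) gave 302, 321 and 217 in controls and 598, 90.2 and 568 in AA, a log2 difference of 0.19 (SE 0.65, limma adjusted p = 0.937). As for miR-199a-5p, AA 19 and AA 21 were above the controls and AA 20 below them.

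The 7 probes of this arm with an intact seed divided on AA 20 by where their target ends. The 3 whose target extends to position 22 of the rat sequence (rno-miR-199a-3p, eca-miR-199a-3p and ssc-miR-199a*) read 1047 to 1728 on AA 20 in deposited intensity. The 4 that end before it (cfa-miR-199, ssc-miR-199b*, bta-miR-199c and gga-miR-199b) read 71.3 to 295. On AA 19 these sets read 667 to 1068 and 598 to 743, and on AA 21 they read 806 to 1336 and 568 to 763. Over the control arrays they read 395 to 794 and 217 to 454. The gap between the sets was thus far wider on AA 20 than on any other array. Reaching position 22 did not mean matching it, since eca-miR-199a-3p differs from rat at positions 21 and 22. cfa-miR-199 and gga-miR-199b were the dimmest of these probes on AA 20, where their spots had an SD of 0.54 and 0.90 in log2.

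The same pattern was present in the scanner signal, where the 3 longer targets read 140 to 228 and the 4 shorter ones 20.2 to 50.4 on AA 20. rno-miR-199a-3p and cfa-miR-199 differ by the last base alone. Their log2 difference within an array was -0.04, 0.14 and 0.34 on control 13, 14 and 15, and 0.02, 2.90 and 0.24 on AA 19, 20 and 21. Over the 149 pairs of tested probes that differ by a single 3′ base, the median difference was -0.01 on AA 20, with quartiles of -0.38 and 0.48, and 1 pair exceeded the miR-199a-3p pair there. For miR-214, the human probe adds a U to the rat sequence, and the longer minus the shorter gave -0.10, -0.05 and -0.15 in controls and -0.37, -0.48 and -0.39 in AA, with AA 20 close to its group. For miR-199a-5p, the 23-base rat probe minus the 22-base oan-miR-199* probe gave -0.15, -0.14 and -0.30 in controls and -0.44, -0.30 and -0.83 in AA, with AA 20 nearest to the controls. The division was noticed after the values were seen and is a description without a test.

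Probes of the 5′ arm are shown by the same convention, with 2 names outside the rule at the end.
pma-miR-199b: cccaguguucUgacuaccuguuc
xtr-miR-199b: cccaguguucagacuacGuguuc
hsa-miR-199b-5p: cccaguguuUagacuaUcuguuc
mmu-miR-199b*: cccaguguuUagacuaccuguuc
oan-miR-199*: cccaguguucagacuaccuguu
The lamprey probe (pma, A11U) gave 21.8, 24.0 and 30.01 in control 13, 14 and 15 and 81.1, 19.5 and 76.0 in AA 19, 20 and 21. As for rno-miR-199a-5p, AA 20 was the lowest array and the other AA arrays were above all controls, and the log2 difference was 0.43 (SE 0.31, limma adjusted p = 0.885). The frog probe (xtr, C18G) did not pass 27.1 on any array. The human miR-199b-5p probe, which carries C10U and C17U of the separate miR-199b gene, did not pass 1.36 and was well above background on 0 of 6 arrays. The pig (ssc-miR-199b) and orangutan (ppy-miR-199b-5p) probes of that miRNA were likewise well above background on 0 of 6 arrays, with highest intensities of 6.43 and 3.71. The mouse probe mmu-miR-199b*, with C10U alone, was well above background on 2 of 6 arrays (control 14 and AA 19) and did not pass 25.5. The platypus probe oan-miR-199*, the rat sequence less its last base, gave 49.3, 47.1 and 68.2 in controls and 158, 57.2 and 243 in AA 19, 20 and 21. Here AA 20 lay inside the control range in deposited intensity, and the log2 difference was 0.76 (SE 0.42, limma adjusted p = 0.885).

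For miR-214, both other probes could be read against the rat one.
hsa-miR-214: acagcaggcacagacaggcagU
gga-miR-214: acagcGggAacagacaggcag
The human probe gave 769, 784 and 1001 in control 13, 14 and 15 and 858, 1662 and 1367 in AA 19, 20 and 21, with AA 19 inside the control range. Its log2 difference was 0.40 (SE 0.29, limma adjusted p = 0.885), against 0.72 for the rat probe on the same miRNA. The chicken probe, with A6G in the seed and C9A, did not pass 28.2 on any array and was not tested.

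Without AA 20, with 3 control and 2 AA arrays left, each of the 8 tested members had a larger difference. The log2 difference of miR-199a-5p went from 0.43 to 0.88 (SE 0.22, limma adjusted p = 0.357), and that of gga-miR-199b from 0.19 to 1.07 (SE 0.24, limma adjusted p = 0.303). That of miR-199a-3p went from 0.74 to 0.84 (SE 0.23, limma adjusted p = 0.373), and that of miR-214 from 0.72 to 0.73 (SE 0.31, limma adjusted p = 0.602). The 8 tested members then ranged from 0.45 to 1.07 with a median of 0.84, and in 7 of them AA and control did not overlap. pma-miR-199b, one of the 7, passed the intensity filter only through the 2 AA arrays kept here, so its lack of overlap was favoured by the filter. Of all 1100 probes tested without AA 20, 18.1% had every AA array above every control array, since 2 AA arrays meet this more easily than 3. No member passed the adjusted threshold, where 0.273% of probes did.

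Differences between members within an array were compared to ask whether the cluster moved unequally. miR-199a-3p minus miR-199a-5p was 2.15, 2.35 and 2.39 on control 13, 14 and 15 and 2.32, 3.12 and 2.39 on AA 19, 20 and 21. On AA 20 this sets miR-199a-3p against a probe that was not well above background. The ratio of their scanner signals was 9.79, 13.7 and 9.56 on controls and 9.74, 9.07 and 9.50 on AA. On AA 20 this ratio divides by the same weak miR-199a-5p signal, 15.4 above the empty spots. It therefore cannot show whether the larger log2 difference on AA 20 was present before correction and normalization. The AA minus control difference of the log2 quantity was 0.31 (exact permutation test, two-sided p = 0.4). For miR-214 minus miR-199a-5p it was 0.29 (exact permutation test, p = 0.7), and for miR-214 minus miR-199a-3p it was -0.02 (exact permutation test, p = 1). Without AA 20 the first became -0.039 and the second -0.16. With 3 against 3 the smallest p is 0.1, so no unequal change could have been called, and after adjustment over the 3 pairs every p was 1. The profiles of miR-199a-3p and miR-199a-5p, each centred on its own mean, differed by a root mean square of 0.31 over 6 arrays and 0.09 without AA 20. Those of miR-214 and miR-199a-3p differed by 0.21 with AA 20 and 0.22 without.

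Among 138 other rat-named miRNAs, the profiles most like the members' mean profile over the 6 arrays were those of miR-200b (root mean square difference 0.20), miR-191 (0.21), let-7c (0.22), miR-130b (0.23) and miR-200c (0.24), against a median of 0.46 over the 138. Their log2 differences were 0.32, 0.36, 0.28, 0.29 and 0.39, none past the test (limma, adjusted p = 0.885 for each). Without AA 20 they ranked 7, 6, 15, 10 and 11 in likeness, so the order rests on that array.

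Other miRNAs linked to kidney fibrosis were read beside the members. Of 17 named, 16 had a rat-named probe (all but miR-155) and 11 were tested. None was called (limma, adjusted p from 0.885 to 0.969), where 0.177% of all tested probes were. At an unadjusted p of 0.05, 1 was higher and 0 were lower, against 1.15% and 3.8% of all tested probes. The median log2 difference was 0.08, against -0.05 over all tested probes. miR-21, which is induced in many injured epithelia, was higher on every AA array than on any control, with a log2 difference of 1.56 (SE 0.60, limma adjusted p = 0.885) and 1.96 without AA 20 (limma adjusted p = 0.343). The miR-200 family, which holds down the mesenchymal factors Zeb1 and Zeb2, gave 0.58 for miR-200a, 0.32 for miR-200b, 0.39 for miR-200c and -0.02 for miR-429 (0.25 without AA 20). miR-141 of this family was not tested. miR-29a and miR-29c, whose targets include collagen messages, gave -0.08 and -0.57, and 0.56 and -0.01 without AA 20. The smooth muscle and pericyte miRNAs miR-143 and miR-145 gave 0.06 and 0.08, and 0.24 and 0.50 without AA 20. Of the 11 tested, 7 had a mean above control with all arrays and 9 without AA 20.

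Markers of other cell types gave these values beside the members. The summed deposited intensity of the leukocyte markers was 323 to 525 in controls and 516, 576 and 533 in AA 19, 20 and 21, with miR-142-3p, miR-142-5p and miR-223 below 32 on every array. The smooth muscle and pericyte sum of miR-143 and miR-145 was 1181 to 2228 in controls and 1552, 1361 and 2265 in AA, overlapping between groups. Endothelial miR-126 was 1210 to 1437 in controls and 1646, 602 and 1428 in AA. The erythroid sum was 51.3 to 66.3 in controls and 75.7, 8.36 and 17.5 in AA, with miR-144 near 0 throughout. Of the rat-named leukocyte probes only miR-150 was tested, and of the erythroid ones only miR-451. miR-155, also listed for leukocytes, has no rat-named probe and is not in the sum. Under names of other species, mmu-miR-155 gave a log2 difference of 1.46 (SE 0.40, limma adjusted p = 0.832). hsa-miR-155 gave 0.51 (SE 0.31, limma adjusted p = 0.885). For both, every AA array was above every control, whereas dre-miR-155 gave 0.23 with overlap between groups. None of the markers that were tested was called (limma). The part of these cell types in the member differences was not tested.

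Across 18 alternative ways of processing the data the difference stayed above 0 for each of the 3 rat members. It ranged from 0.23 to 0.88 for miR-199a-5p, from 0.20 to 0.93 for miR-199a-3p and from 0.03 to 1.03 for miR-214. The lower ends for miR-199a-3p and miR-214 came from leaving the arrays unnormalized. With array quality weights, which lower the weight of discordant arrays, rno-miR-199a-3p, rno-miR-214 and eca-miR-199a-3p passed the threshold (limma, adjusted p = 0.0405 for each), with differences of 0.86, 1.03 and 0.82. Under those weights 3.89% of all tested probes were called, against 0.177% with equal weights.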

How the data were processed

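The authors tailed and tagged kidney RNA, hybridised it to a custom vertebrate miRNA array in 1 colour (Cy3) and scanned it. For each of 15066 spots, the deposited scanner files give a linear intensity (pixel median) without a local background. The authors' deposited table holds normalized intensity. Their methods name background subtraction, LOWESS, log2 transformation, centring and a filter at 32, but the values are linear and not centred, with r of 0.969 to 1.00 against the scanner signal. Column medians over the miRNA probes were 2.41, 2.19 and 2.40 for control 13, 14 and 15 and 2.37, 1.22 and 1.99 for AA 19, 20 and 21. How spots were combined is not stated.

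Scanner intensity was corrected by normexp (offset 50), put on the log2 scale, quantile-normalized and averaged over the 2 spots of a probe. Probes at 32 or more on at least 1 array in the deposited table were tested with lmFit and eBayes (limma 3.58.1, R 4.3.3), with Benjamini-Hochberg adjustment over all 1132 tested probes and a threshold of 0.05. The offset understates changes of dim probes. The code was tested on simulated data.

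Members and lists were chosen with earlier results of these data known. The rule named each rat member, the other-species probe with the largest rise or fall, and the 5 closest profiles. The remaining other-species probes were named after their values were seen. Groups came from the labels, 1 animal per array, and no batch is labelled. The number of arrays and the signal over background limit precision. Alternatives covered background, normalization, filter, test, array weights, spot averaging, use of the deposited table and omission of single replicates. Sequences and gene positions were taken from RefSeq on GRCr8, while no build is named in the array files.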

Additional observations from a re-analysis of the deposited data

How the results depend on the processing

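The 3 rat members kept a difference above 0 under every alternative run, and their calls changed under array quality weights alone, whose estimation stopped before reaching its tolerance. There 3 member probes were called, with 0.86 for rno-miR-199a-3p and 1.03 for rno-miR-214. Under the other alternatives 0 members were called, including all 13 members without a filter and the wider set of names, which was added after the data were seen. Over all tested probes the 2 limma calls became 0 with cyclic loess (70 at an unadjusted p of 0.05), median scaling (24) and no normalization (5), 44 with array quality weights, and 0 to 3 when 1 replicate was left out. The methods' t-test gave 3 members at its unadjusted threshold and 0 after Benjamini-Hochberg adjustment. Leaving out 1 replicate gave 0.23 to 0.88 for rno-miR-199a-5p, 0.64 to 0.84 for rno-miR-199a-3p and 0.53 to 0.91 for rno-miR-214. The same gave -0.23 to 1.07 for gga-miR-199b and -0.21 to 0.91 for ppy-miR-199b-3p. gga-miR-199b was below 0 without AA 19 (-0.16) and without AA 21 (-0.23), and ppy-miR-199b-3p without AA 19. hsa-miR-214 was -0.24 without normalization.

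The miR-199a-3p minus miR-199a-5p difference was -0.12 under median scaling and without normalization, and with 1 replicate left out ranged from -0.039 (without AA 20) to 0.51. miR-214 minus miR-199a-5p was -0.28 under both settings, and -0.16 to 0.66 with 1 replicate left out. miR-214 minus miR-199a-3p was -0.14 to 0.16 with 1 replicate left out. The cause was not tested. Median scaling moved the median difference of all probes from -0.05 to 0.24, and omitting normalization moved it to -0.32. Median scaling used probes at 32 on every array, a choice made after the data were seen. No paired analysis was possible because controls and AA rats carry different replicate numbers. No slide or scan is named, so neither could be used as a block. pma-miR-199b was not tested when 32 was required on 3 arrays. With 3 arrays per group, of which AA 20 was dim, differences of the size seen in the members could not be separated from the spread of the arrays after adjustment.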

Other observations

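The locus also carries miR-3120, read from the strand opposite miR-214. Its rat-named probe had deposited intensities of 2.13, 4.56 and 0.756 in control 13, 14 and 15 and 0.0202, 4.57 and 3.14 in AA 19, 20 and 21, and was well above background on 0 of 6 arrays. The hsa-miR-3120-5p probe gave 11.9, 22.3 and 61.1 in controls and 9.28, 17.5 and 21.9 in AA. The passenger strand rno-miR-214* did not pass 7.44 on any array.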
